A study of Mus musculus with 2 samples.

Results

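The region described here is a window of chromosome 13 in mouse embryonic stem cells (31200000 to 32300000, mm8 build) that carries the label of the forkhead genes Foxq1, Foxf2 and Foxc1. Its members, chosen by position from a list called on the ChIP reads, are the peaks of PHF19 chromatin immunoprecipitation with sequencing (ChIP-seq) that overlap the window: 10 of the 3445 peaks on the list the authors deposited. ChIP counts and their ratio to input at these places are therefore a description. Calls from tests over the whole list or genome are counted beside their background share, with nothing read from them. The cells were of the E14 line, grown on gelatin in medium with LIF, the cytokine that holds embryonic stem cells in the pluripotent state. DNA bound by a custom rabbit polyclonal antibody to PHF19 made up 1 library (21957101 distinct reads), and input DNA taken without an antibody made up the other (24496988 distinct reads). No library from cells without PHF19 and none with an unrelated antibody was used here, so the reads show what the antibody recovered. With 1 library per group there is no replicate error, and every interval below is a 95% interval for counting error only; amplified reads are not independent molecules.

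PHF19 is a Polycomb-like protein that associates with PRC2, the complex that methylates lysine 27 of histone H3 and helps keep developmental genes silent in embryonic stem cells. Proteins of this family carry a Tudor domain that binds H3K36me3 and a winged-helix domain that binds DNA rich in unmethylated CpG, and the CpG-rich starts of developmental transcription factor genes are typical places of PRC2. Forkhead proteins are transcription factors with a shared DNA-binding domain. Foxq1 is known for its part in hair formation (the satin coat of the mouse), Foxf2 for mesenchyme of the palate and gut and for pericytes of the brain, and Foxc1 for the eye, the meninges, the skeleton and blood vessels.

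Gene positions on mm8 were not used here. No peak was therefore assigned to a gene, and the label of the window could not be checked against gene positions. In the RefSeq gene table at hand, of the GRCm38.p6 assembly, Foxq1, Foxf2 and Foxc1 follow each other on chromosome 13 in this order with no other protein-coding gene between them. That table lists 2 long non-coding RNAs, 1 small nuclear RNA and 1 small nucleolar RNA among them. The next protein-coding genes are Hus1b, a relative of the checkpoint clamp gene Hus1, and Exoc2, a subunit of the exocyst, on the Foxq1 side, and Gmds, an enzyme of GDP-fucose synthesis, and Mylk4, a myosin light chain kinase, on the Foxc1 side.

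The DNA before the starts of Foxf2 and Foxc1 is shown because CpG content is the sequence feature tied to Polycomb-like proteins. These are the 250 bases upstream of each start, from RefSeq (GRCm38.p6, plus strand, chr13:31625566-31625815 for Foxf2 and chr13:31806396-31806645 for Foxc1), with every CG in capitals; CG reads the same on both strands. These positions belong to another build than the peaks and cannot be set against them. No sequence of Foxq1 is shown, because the promoter sequences at hand held none for that gene.
Foxf2: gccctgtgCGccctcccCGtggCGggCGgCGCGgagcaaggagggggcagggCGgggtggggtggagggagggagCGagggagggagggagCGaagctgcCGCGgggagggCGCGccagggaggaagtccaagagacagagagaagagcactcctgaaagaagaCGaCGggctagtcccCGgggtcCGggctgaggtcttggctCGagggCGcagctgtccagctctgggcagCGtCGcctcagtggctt
Foxc1: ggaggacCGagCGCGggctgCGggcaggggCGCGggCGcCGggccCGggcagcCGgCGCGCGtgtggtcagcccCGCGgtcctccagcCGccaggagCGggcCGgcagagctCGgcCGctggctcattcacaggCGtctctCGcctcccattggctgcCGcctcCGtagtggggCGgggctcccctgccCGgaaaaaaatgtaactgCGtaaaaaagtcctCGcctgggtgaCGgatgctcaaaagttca
The stretch before Foxf2 holds 21 CG and is 71.6% G or C. Before Foxc1 there are 29 CG at 70.8% G or C. Of 32851 promoters cut in the same way, 92.1% hold at least 1 CG and the median number is 6; 16.3% hold at least as many as Foxf2 and 6.78% at least as many as Foxc1. The ratio of CG found to CG expected from the base content is 0.724 before Foxf2 and 0.928 before Foxc1, against a median of 0.373. Of 44 protein-coding forkhead genes in the gene table, 28 have a promoter in the sequence table, some with several starts. Those 33 forkhead promoters hold 3 to 48 CG with a median of 16, and 25 of them hold more than the median of all promoters. Both stretches thus stand above the forkhead median in CG number; these counts describe the sequence and say nothing about where the antibody bound.

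The 10 peaks formed 3 groups when peaks with gaps of at most 10 kb were joined: a single peak (peak 1), a group of 4 peaks (peaks 2 to 5) and a group of 5 peaks (peaks 6 to 10), numbered along the chromosome. From the first to the last peak they spanned 255 kb of the 1100 kb window. The widest gap joined was 2012 bp and the narrowest gap not joined was 59.3 kb, so the grouping was far from its threshold on both sides. Between the single peak and the group of 4 lay 59.3 kb, and between the group of 4 and the group of 5 lay 170 kb.

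**Figure D1:**
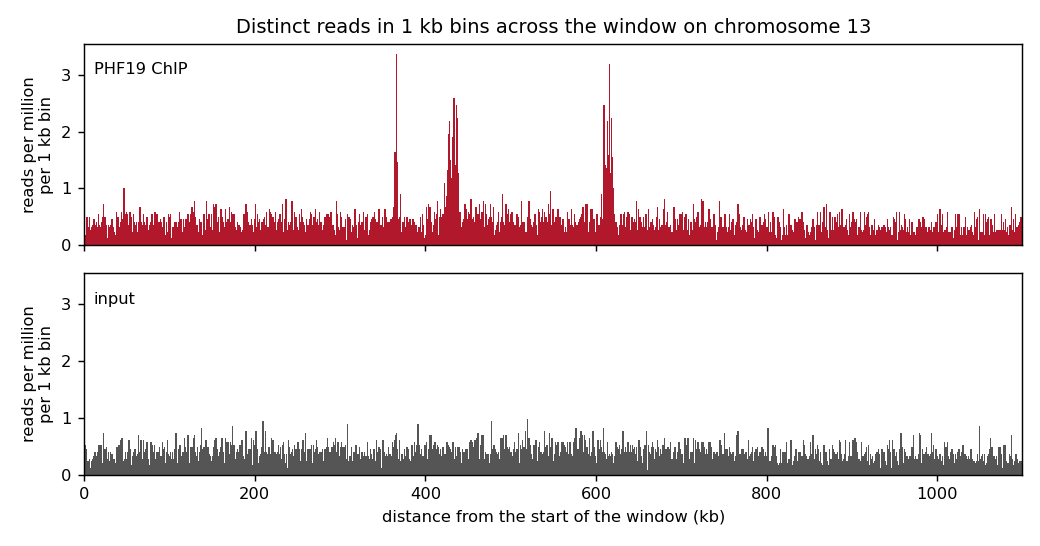
Reads per 1000000 distinct reads of the library (RPM) in bins of 1 kb (vertical axis) against the distance from the start of the window in kb (horizontal axis), for the PHF19 ChIP above and the input below. The ChIP rises at 3 places, one for each group of peaks, while the input stays below 1 RPM in every bin.

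The groups stood far from other peaks of the list. The nearest peak before them ended 6917 kb upstream of peak 1, and the nearest after them began 2532 kb downstream of peak 10, so the 10 peaks were the only ones in 9.70 Mb. Neighbouring groups on chromosome 13 lay a median of 441 kb apart. Among the 104 spaces between neighbouring groups on this chromosome, the space before the single peak was the second longest and the one after the group of 5 the 11th. Both spaces were covered by reads, with 9.34 and 9.61 input reads per kb, and their ChIP to input ratios were 0.975 (0.964 to 0.986) and 0.980 (0.962 to 0.998). Of their 1 kb bins, 1 of 6896 before and 0 of 2528 after were called higher in the ChIP by the bin test described below, against 0.157% of all bins tested. Peaks 1 and 10, the outermost inside the window, lay 364 and 480 kb from its edges. The nearest peaks outside it had 39 ChIP and 8 input reads (fold 5.44, 2.51 to 13.5) and 59 ChIP and 20 input reads (fold 3.29, 1.95 to 5.77).

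Over the 10 peaks together, which cover 21.2 kb, the ChIP library held 960 reads and the input 240. Scaled by library total, that is 43.7 against 9.80 reads per 1000000 distinct reads (RPM) and a fold (the ChIP share of reads over the input share) of 4.46 (3.87 to 5.16). The 151 other peaks of chromosome 13 had a joint fold of 3.97 (3.82 to 4.13), and the 3435 peaks outside the window 3.56 (3.53 to 3.59). These joint folds differ in input as well as in ChIP. In the same order (window, other peaks of chromosome 13, all peaks outside the window), ChIP density was 45.3, 43.6 and 46.2 reads per kb. Input density was 11.3, 12.2 and 14.5 reads per kb. By an exact conditional binomial test over the whole list (adjusted p of 0.05 and a fold of at least 2), 10 of 10 were called higher in the ChIP, where 98.5% of all peaks were. At a fold of at least 4, 7 of 10 were called, against 40.6% of all. Since the list came from these reads, nothing is read from either count.

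The single peak (31564264 to 31567447) was 3184 bp wide and held 155 ChIP and 50 input reads. Its fold was 3.46 (2.50 to 4.86), slightly under the list's median of 3.68, although no other member held as many ChIP reads. Its ChIP density of 48.7 reads per kb was the third highest of the 10, and its input density of 15.7 reads per kb was the second highest. Among the 2044 peaks of the list that stand alone, it ranked 114th in width and 307th in ChIP density but 1035th in fold. Its fullest 200 bp held 17 ChIP and 4 input reads and lay 0.3 kb to the right of the middle of the peak.

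In the group of 4, peak 2 (31626791 to 31629866) had 127 ChIP reads against 35 of the input, which gives a fold of 4.05 (2.77 to 6.07). Peak 3 (31631879 to 31633001) was the narrowest and weakest of all 10, with 45 ChIP and 18 input reads over 1123 bp and a fold of 2.79 (1.58 to 5.12). Next to it, only 13 bp away, peak 4 (31633015 to 31635057) had 116 ChIP and 14 input reads and the largest fold in the window, 9.24 (5.29 to 17.4). The peak ranked 61st of 3445 in fold. Peak 5 (31635137 to 31638367), the widest at 3231 bp, had 140 ChIP reads against 36 of the input and a fold of 4.34 (2.99 to 6.44). Within these 11.6 kb the weakest and the strongest fold of the window, with peaks as the list draws them, therefore stood side by side. The gap of 13 bp was shorter than the 54 bp by which read ends were moved. With peaks widened by 500 bp, the folds of peaks 3 and 4 were 2.99 and 5.92. The interval of peak 4 lay above those of peaks 1 and 3 and overlapped the intervals of the other 7.

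In the group of 5, peak 6 (31808681 to 31810016) had 62 ChIP reads against 14 of the input and a fold of 4.94 (2.74 to 9.56). Peak 7 (31810049 to 31811926) held 58 and 17 reads, a fold of 3.81 (2.19 to 6.97), and had the lowest ChIP density of the 10 at 30.9 reads per kb. Peak 8 (31812760 to 31814005) held 56 and 15 reads, a fold of 4.17 (2.32 to 7.93). Peak 9 (31814361 to 31816632) held 123 and 23 reads, a fold of 5.97 (3.80 to 9.76), and carried the highest authors' score in the window. Peak 10 (31817879 to 31819676) held 78 and 18 reads, a fold of 4.83 (2.87 to 8.58). All 5 intervals overlapped, so these peaks could not be told apart in fold at this depth.

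**Figure D2:**
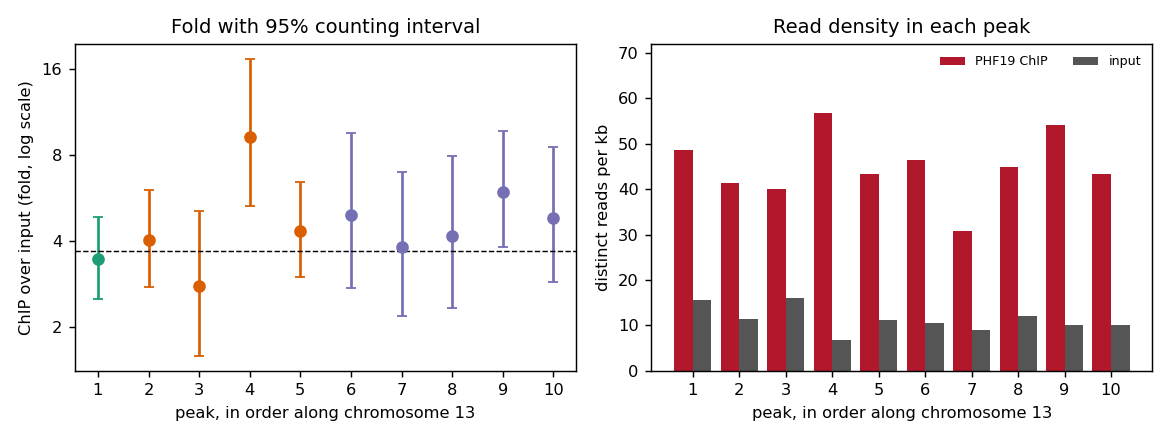
Left, the fold of ChIP over input on a log axis for the 10 peaks in chromosome order, with exact 95% counting intervals (1 library each) and a dashed line at the median of all 3445 peaks, 3.68; colours mark the single peak, the group of 4 and the group of 5. Right, distinct reads per kb in the same peaks; peak 4 has both the highest ChIP and the lowest input density.

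The order of the peaks in fold reflects the input counts as well as the ChIP counts. ChIP density ranged from 30.9 to 56.8 reads per kb, and 9 of the 10 peaks were above the list's median of 39.3. Input density ranged from 6.85 in peak 4 to 16.03 in peak 3. Peaks 4 and 9 had the highest ChIP densities, 56.8 and 54.1 reads per kb, and also the largest folds. Peaks 3 and 1 had the highest input densities and the lowest folds, although the ChIP density of peak 1 was above that of 7 other members. Relative to the median 1 kb bin of chromosome 13 (9 input reads), input density was 0.761 in peak 4, 1.78 in peak 3 and 1.26 over the 10 together. No member reached 2 times the median, the level used for raised input.

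By the authors' own score, a ranking within their list of unstated scale, the members ran from 113.96 (peak 3) to 543.02 (peak 9), with 479.19 for peak 4 second. The median of the list was 113.6, and 10 of 10 were above it, peak 3 only just, at rank 1717. Peak 9 ranked 222nd and peak 4 ranked 285th of 3445. In width, 7 of 10 exceeded the list's median of 1425 bp, and in fold 8 of 10 exceeded 3.68; the exceptions in fold were peaks 1 and 3. None of these measures placed a member among the 50 highest of the list.

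Taken group by group, the joint fold was 3.46 (2.50 to 4.86) at the single peak, 4.64 (3.73 to 5.81; 428 ChIP and 103 input reads) in the group of 4 and 4.83 (3.82 to 6.18; 377 and 87 reads) in the group of 5. The 3 intervals overlapped. The group of 4 covered 9.47 kb of peak in a span of 11.6 kb, and the group of 5 covered 8.53 kb in 10.996 kb. Peaks therefore took up 81.8% and 77.6% of the spans, against medians of 63.7% in the 50 groups of 4 peaks on the list and 62.4% in the 25 groups of 5. Median folds of those groups were 4.39 and 4.88, close to the values in the window. Among all 55 groups of at least 5 peaks, the group of 5 ranked 22nd in fold, 43rd in ChIP reads and 45th in covered length.

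**Figure D3:**
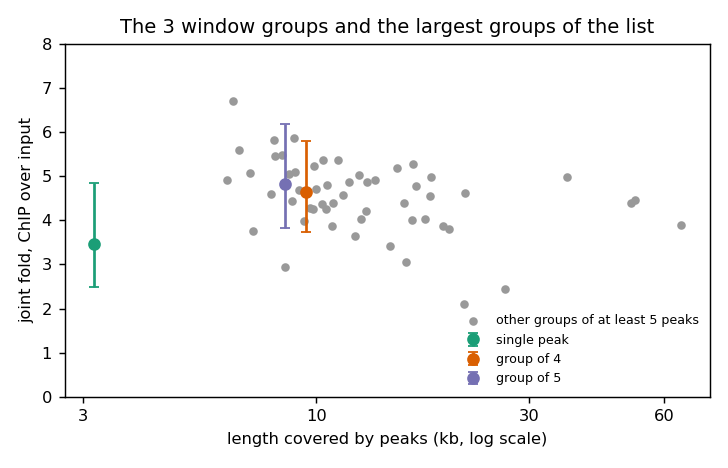
Joint fold of ChIP over input against the length covered by peaks in kb (log axis). Coloured points with exact 95% counting intervals are the single peak, the group of 4 and the group of 5 of the window, and grey points are the other groups of at least 5 peaks on the list; the groups of 4 and 5 lie among the grey points at their short end.

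Inside the 2 larger groups, the spaces between peaks, taken whole, also held a larger share of the ChIP reads than of the input reads. The spaces between peaks 2 to 5, 2.10 kb in all, had 55 ChIP reads against 18 of the input, giving a fold of 3.41 (1.97 to 6.17). Those between peaks 6 to 10, 2.47 kb, held 52 and 14 reads, a fold of 4.14 (2.26 to 8.10). Both values lay inside the range of the peaks themselves. In ChIP density the spaces were lower, at 26.1 and 21.1 reads per kb, than the peaks of the same groups, at 45.2 and 44.2. Input density was lower there too, at 8.56 and 5.68 reads per kb against 10.9 and 10.2. The folds of the spaces thus rest partly on low input. Most of this space borders a peak, and with 500 bp next to each peak left out, 246 bp with 2 ChIP and 3 input reads remained in the group of 5, a ratio of 0.744 (0.0621 to 6.49). For the group of 4 the same step left 1012 bp at a fold of 4.62 (1.98 to 12.5).

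The fullest 200 bp of the group of 4 held 19 ChIP reads, a number reached at 2 places, 1.3 and 4.3 kb to the right of the centre, in peaks 4 and 5, with 2 and 3 input reads. In the group of 5 it held 18 ChIP and 2 input reads and lay 1.5 kb to the right of the centre, in peak 9. The maxima of the 3 groups, 17 to 19 reads, were thus nearly equal, whereas the groups differed in how far the signal extended.

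**Figure D4:**
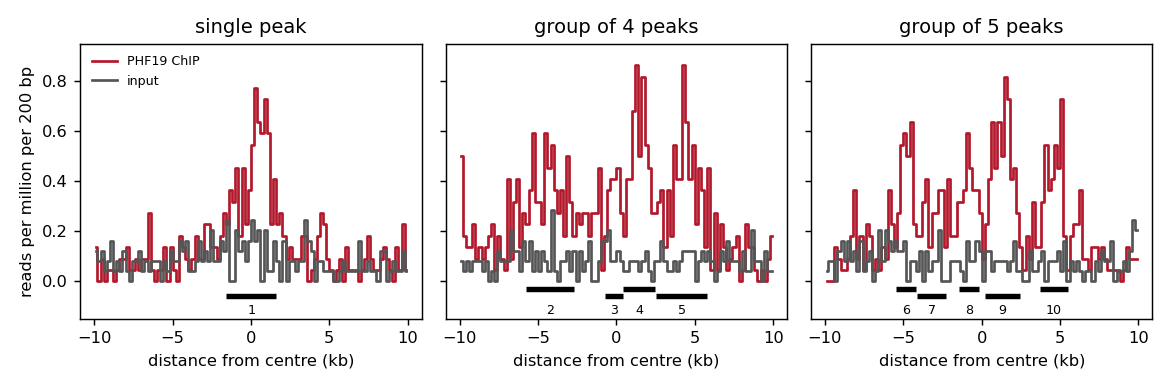
RPM in 200 bp steps within 10 kb of the centre of each group, for the PHF19 ChIP (red) and the input (grey); black bars with numbers mark the peaks. The ChIP reaches maxima of 0.774 RPM in the single peak, 0.865 in the group of 4 and 0.820 in the group of 5. Summits were not called, and a step holds at most 19 ChIP reads.

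A count in 1 kb bins that did not start from the peaks gave the same places. Of the 1100 bins of the window 1099 held enough reads to be tested, and 15 passed as higher in the ChIP (exact conditional binomial test, one-sided, adjusted over all bins of the genome, of which 0.157% were called). These are the same reads as those behind the peak list, so the count is a description. All 15 touched a member. The single peak had 1 called bin of the 4 it touched, and the groups of 4 and 5 each had 7 of 12. The bin with the most ChIP reads lay in the single peak (from 31566001) with 74 ChIP reads against 18 of the input and a fold of 4.59 (2.71 to 8.16). Next came the bin from 31815001 in peak 9, with 70 and 9 reads and a fold of 8.68 (4.32 to 19.8). The bins from 31633001 and 31634001, which both touch peak 4, each held 57 and 7 reads, a fold of 9.08 (4.14 to 23.6).

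The 13 bins that touched a peak but were not called held 19 to 36 ChIP reads, against 30 to 74 in those called. Peak 7 was the only member without a called bin: its bins held 28 and 31 ChIP against 8 and 9 input reads, folds of 3.90 (1.73 to 9.91) and 3.84 (1.79 to 9.18). Outside the peaks the fullest bin of the window held 26 ChIP and 10 input reads (fold 2.90, 1.35 to 6.74) and lay in the 2012 bp gap between peaks 2 and 3. The next, with 24 and 9 reads (fold 2.98, 1.34 to 7.27), lay 3.79 kb before the group of 4. Larger folds were seen in bins with fewer reads. The bin from 31820001 held 22 and 5 reads (fold 4.91, 1.81 to 16.6) and lay 0.324 kb from peak 10. The bin from 31246001 held 22 and 6 reads (fold 4.09, 1.61 to 12.3) and lay 317 kb from the nearest member. None of these bins outside the peaks was called.

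Away from the peaks, the ratio came down to about 1. Bins that touched no peak had a fold of 1.70 (1.36 to 2.13; 13 bins) within 2 kb of a member. The fold was 1.18 (0.946 to 1.46) from 2 to 5 kb away and 1.14 (0.959 to 1.34) from 5 to 10 kb away. From 10 to 50 kb it was 0.954 (0.895 to 1.02), and beyond that 0.965 (0.934 to 0.997). Around all peaks of the list the same steps gave 1.33, 1.10, 1.05, 1.03 and 0.983. Within 2 kb the fold was 1.18 (0.786 to 1.79) at the single peak, 1.98 (1.37 to 2.88) at the group of 4 and 2.04 (1.33 to 3.17) at the group of 5, each over 4 or 5 bins, with overlapping intervals. From 2 to 5 kb it was 1.32 (0.887 to 1.97) at the single peak, where it was no lower than in the bins within 2 kb, 1.54 (1.07 to 2.25) at the group of 4 and 0.778 (0.522 to 1.15) at the group of 5. Bins that touch a peak are left out of these steps, so part of the DNA next to a peak edge is missing. Counted from the edges, the 2 kb to the left and right of the single peak had folds of 1.38 (0.826 to 2.34) and 1.81 (1.02 to 3.28). Beside the group of 4 they were 1.96 (1.18 to 3.35) and 1.91 (1.09 to 3.45). Beside the group of 5 they were 1.31 (0.773 to 2.23) and 3.65 (1.82 to 7.95), with 29 and 11 input reads. In all, the window outside its peaks had 9366 ChIP reads against 10545 of the input and a fold of 0.991 (0.964 to 1.02), and chromosome 13 as a whole 0.998 (0.996 to 1.001).

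**Figure D5:**
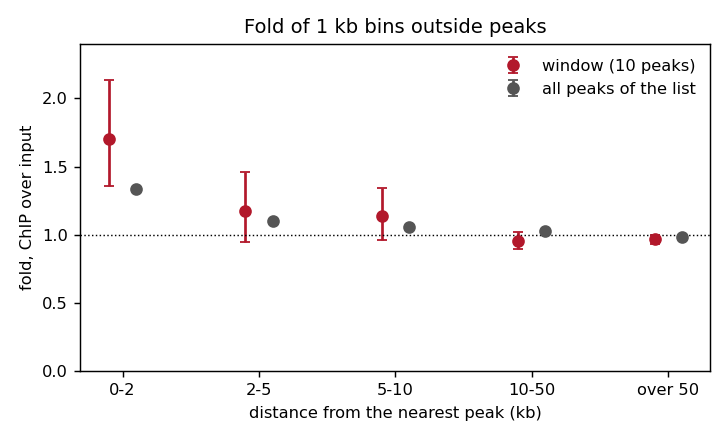
Fold of ChIP over input in 1 kb bins that touch no peak, by distance from the nearest peak in kb, for the window (red) and all peaks of the list (grey), with exact 95% counting intervals and a dotted line at 1. The window falls from 1.70 within 2 kb to below 1 beyond 10 kb.

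Strand and duplicates did not enter the choice of members by position, although the counts kept 1 read per position and strand. Whether the peak caller used them is not stated, so the values here are a description. Plus-strand reads made up 49.1% (45.9 to 52.3, exact binomial interval) of ChIP reads in the 10 peaks and 49.6% (43.1 to 56.1) of input reads. Over all peaks of the list the shares were 50.6% and 50.7%. Per peak, the ChIP share ran from 41.9% in peak 6 to 65.5% in peak 7. By Fisher's exact test (two-sided) against the input with adjustment over the whole list, 0 of 10 passed (each adjusted p = 1), and 0 of 10 reached an unadjusted p of 0.05. Over the list 0% passed. With 14 to 50 input reads in a peak, this does not show that the shares were equal. The joint fold was 4.34 (3.55 to 5.36) from plus-strand reads alone and 4.60 (3.76 to 5.66) from minus-strand reads. Reads removed as duplicates made up 0% to 9.68% of the ChIP reads in a member, with a median of 3.82%. Over all peaks of the list the median was 4.26%, and in the whole ChIP library the share was 8.38%.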

How the data were processed

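Each deposited read line gives chromosome, start, end and strand of a read of 42 bases. Per the submitters' processing notes the build was mm8 and the aligner Bowtie, of unstated version. The peak list holds a score per peak as the authors deposited it, and the file headers name MACS; its settings and its control are not stated. Of reads that share 5′ end and strand, 1 was kept (8.38% of ChIP and 7.33% of input reads removed), and 5′ ends were moved inwards by 54 bp, read from the lag between strands in the input (109 bp) by dividing it by 2; the lag of the ChIP library, 42 bp, equalled the read length. Fold is the ratio of shares of distinct reads, and an input count of 0 would be raised to 3, which no member needed. Intervals are exact (Clopper-Pearson, 95%). Bins needed at least 5 reads in both libraries together. Calls used Benjamini-Hochberg adjustment at 0.05 over the whole list or genome and a fold of 2, and the tests were tried on simulated data. Every peak of the window is described; named bins are the fullest ones called, and the fullest outside peaks and those of peak 7 were chosen after their values were seen. The members and lists were chosen with earlier results of these data known. The software was scipy 1.17.1, numpy 2.4.6 and pandas 2.3.3 under Python 3.11.15, and figures were drawn with matplotlib 3.10.9.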

Additional observations from a re-analysis of the deposited data

How the results depend on the processing

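Alternatives covered duplicates, the shift, scaling by autosomal reads over 100 kb from any peak, widened peaks, the score, the gap, bin size, the read minimum and the fold threshold. The joint fold of the 10 peaks, 4.46, ranged from 4.15 with peaks widened by 500 bp to 4.55 with the other scaling. All 50 recomputed folds of single peaks stayed inside their counting intervals; with peaks widened by 500 bp, which takes in neighbouring reads, the largest was 5.92. The number of groups stayed at 3 under gaps of at most 5 and 20 kb and with only peaks of at least the median score. With bins of 5 kb in place of 1 kb, 7 bins of the window were called in place of 15. Over the genome 2311 of 513676 tested bins were called at 5 kb, and 3982 of 2531234 (0.157%) at 1 kb. Bins of 5 kb are longer, so the counts cannot be set directly against each other. The fold between the peaks of the group of 5 reversed to 0.744 (0.0621 to 6.49) when 500 bp next to each peak were left out, which rests on 2 ChIP and 3 input reads. Depth limits the comparison of single peaks, with 14 to 50 input reads each. No paired analysis was possible because each group has 1 library.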
